A study of Mus musculus with 8 samples.

Results

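Scx, Mkx, Tnmd and Egr1 are genes of tendon and ligament cells, the lineage that the dental follicle around a growing tooth also gives rise to as the periodontal ligament. They were taken as a fixed set of 4 symbols among the 56748 gene identifiers of the count table, using for each symbol the identifier with the most reads. All 4 passed the filter on low counts, as did 21508 genes in all. The 4 cKO libraries, labelled Ctnnb1(-/-), and the 4 cHet libraries, labelled Ctnnb1(+/-), came from mouse lower-jaw molars taken on postnatal day 10, after tamoxifen on postnatal day 3 in both groups. Ctnnb1 encodes beta-catenin, which joins cells at junctions and carries the canonical Wnt signal. The cells were sorted for tdTomato, a red fluorescent reporter, and their RNA was amplified with a full-length, low-input SMART-Seq kit. The labels name neither the Cre driver nor the deleted exons. They give no group with both copies of Ctnnb1 intact, and do not say whether each library was 1 animal.

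Scleraxis (Scx) is a basic helix-loop-helix factor that marks tendon and ligament progenitors. Mohawk (Mkx) is a homeobox factor that keeps tendon and periodontal ligament cells in their state, and mouse ligaments that lack it deteriorate with age. Tenomodulin (Tnmd) is a membrane glycoprotein of maturing tendon and ligament cells and a known target of scleraxis. Egr1 is a zinc-finger factor that promotes tendon collagen genes under load, and it is also an immediate early gene that many stimuli switch on within minutes, tissue dissociation among them.

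The labels describe the tissue in several ways: as dental pulp, as CXCL12-positive apical papilla, and, in the extraction protocol, as dissociated dental follicle. Papilla markers were measured in every library, with summed levels of 2422 to 4347 CPM (read counts normalised for depth, with trimmed-mean factors) in cKO and 401 to 1030 CPM in cHet. EdgeR called 3 of the 6 papilla markers higher, where it called 1.08% of all tested genes higher. Igfbp5 (edgeR adjusted p = 0.0369) and Smoc2 (0.0471) were among them. The groups did not overlap for Dlx2 (log2 1.99, not called by edgeR) and overlapped for Fgf10 (log2 0.58) and Aldh1a2 (log2 -0.30). Cxcl12 itself, the chemokine that names these cells, was called higher (825 ± 238 CPM in cKO and 149 ± 91.4 CPM in cHet, edgeR adjusted p = 0.0497). That call lay at the threshold and held in 8 of 19 alternative fits, not without cKO7, cKO14, cKO15, cHet11, cHet12 or cHet14 and not with either covariate used further on. Cxcl12 also missed it in edgeR with RLE scaling factors (adjusted p = 0.0549), with library size alone (0.0523) and with robust dispersions (0.0513). Transcripts of other tissues were present too. The 9 olfactory epithelium markers summed to 5715 to 7135 CPM in cKO and 6464 to 12390 CPM in cHet, and the 7 ameloblast markers to 4706 to 8542 CPM in cKO and 2312 to 11451 CPM in cHet. Markers of general mesenchyme, a broad class of connective tissue cells, summed to 1809 to 4349 CPM in cKO and 663 to 1706 CPM in cHet. All 8 of these markers had positive log2 fold changes, and edgeR called 1, Prrx1, where it called 1.08% of all tested genes higher. DESeq2 called Prrx1, Prrx2, Pdgfra, Pdgfrb, Mmp2 and Fstl1 higher (adjusted p from 7.22e-07 for Prrx1 to 0.00119 for Pdgfrb), against 7.95% of all tested genes. Limma voom called the same genes, against 5.96% of all tested genes. Vim and Thy1 were called by none of these methods. In bulk RNA, a smaller share of cells of a type and less RNA per cell cannot be told apart. Leukocyte markers were highest in 1 library: 5 of them summed to 94.8 to 404 CPM in cKO and 123 to 7384 CPM in cHet, with the top sum in cHet12. All 5 had negative log2 values (median -2.75). EdgeR called 0 of them, though all 5 had an unadjusted p under 0.05, where 6.33% of all tested genes were lower. DESeq2 called Ptprc, Cd68 and S100a8 lower, against 4.05% of all tested genes. Without cHet12, the log2 value by edgeR was 2.16 for Mkx (adjusted p = 0.108) and 1.58 for Egr1 (adjusted p = 0.153). That fit called 0 genes. The part of leukocyte transcripts in the differences between groups was not tested. Skeletal muscle, to which tendon attaches, was close to absent: its 9 markers summed to 6.67 to 20.2 CPM in cKO and 5.28 to 19.2 CPM in cHet, and Myod1, Myog, Myf5, Pax7 and Ckm each had 0 counts in at least 1 library. Ctnnb1 itself stood at 277 ± 39.2 CPM in cKO and 257 ± 40.2 CPM in cHet (SD, n = 4 each), a count over the whole gene that cannot check the deletion. Every library held both Xist, from the inactive X of female cells (19.2 to 40.4 CPM in cKO and 24.8 to 121 CPM in cHet), and the Y-linked Ddx3y (34.6 to 60.2 CPM in cKO and 8.13 to 53.5 CPM in cHet). The labels mention no pooling, and the fits did not model sex.

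Promoter sequence is shown for Tnmd and for chondromodulin (Cnmd), its closest relative, because these related genes had unlike values in the libraries. The RefSeq promoter table (GRCm38.p6) matched 1 of the 4 genes, Tnmd, and it also held Cnmd. Each window runs from 250 bases before to 50 bases after the annotated start. Capitals mark the E-box CANNTG, the letters that helix-loop-helix factors such as scleraxis bind. The Tnmd window is chrX:133850758-133851057 on the plus strand and the Cnmd window is chr14:79662134-79662433 on the minus strand.
Tnmd: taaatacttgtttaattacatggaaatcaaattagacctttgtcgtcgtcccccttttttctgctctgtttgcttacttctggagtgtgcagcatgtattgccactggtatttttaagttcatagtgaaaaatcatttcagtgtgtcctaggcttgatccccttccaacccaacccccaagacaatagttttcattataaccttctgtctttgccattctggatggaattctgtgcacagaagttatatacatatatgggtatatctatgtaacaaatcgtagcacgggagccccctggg
Cnmd: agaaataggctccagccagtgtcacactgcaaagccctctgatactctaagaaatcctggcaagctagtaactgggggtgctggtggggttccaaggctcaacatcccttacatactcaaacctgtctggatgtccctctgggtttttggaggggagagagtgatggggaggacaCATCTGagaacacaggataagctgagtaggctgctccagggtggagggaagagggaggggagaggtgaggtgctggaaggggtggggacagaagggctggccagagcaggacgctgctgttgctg

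The Tnmd window held 0 E-boxes and the Cnmd window 1, CATCTG at position -75 from the start. Of 32851 promoter windows of this length, 72.3% held at least 1 E-box, which reads the same on both strands. Neither window held the EGR motif GCGNGGGCG or its complement CGCCCNCGC, found in 5.55% of windows. Neither held the TCF/LEF motif CTTTGA or its complement TCAAAG, found in 16% of windows. These are matches of letters in a short window, and nothing about binding follows from them.

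Mkx had the largest log2 difference of the 4 genes. It stood at 83.9, 44.4, 92.0 and 125 CPM in the cKO libraries cKO7, cKO9, cKO14 and cKO15, against 27.3, 9.51, 34.4 and 21.2 CPM in cHet8, cHet11, cHet12 and cHet14. Every cKO library lay above every cHet library. The lowest cKO library was cKO9 and the lowest cHet library was cHet11. The means were 86.2 ± 33.0 CPM in cKO and 23.1 ± 10.5 CPM in cHet (SD, n = 4 each), 3.73-fold higher in cKO. The log2 fold change was 1.90 (SE 0.43), and it missed the threshold in edgeR's quasi-likelihood test with Benjamini-Hochberg adjustment over all tested genes (adjusted p = 0.0786). The exact two-sided permutation test gave p = 0.0286, the smallest that 4 against 4 libraries allow.

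Egr1 was the most abundant of the 4 genes. It stood at 3833, 1419, 3033 and 4417 CPM in cKO7, cKO9, cKO14 and cKO15, against 1365, 692, 1181 and 1122 CPM in cHet8, cHet11, cHet12 and cHet14. The groups did not overlap, although the lowest cKO library, cKO9, lay just above the highest cHet library, cHet8. The means were 3175 ± 1301 CPM in cKO and 1090 ± 285 CPM in cHet (SD, n = 4 each). The log2 fold change was 1.54 (SE 0.35, adjusted p = 0.0804 by edgeR), 2.91-fold higher in cKO, and the exact permutation p was again 0.0286.

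Scx was scarce. It had 152, 68, 128 and 121 counts in cKO7, cKO9, cKO14 and cKO15, which came to 3.38, 1.52, 2.78 and 2.84 CPM. In cHet8, cHet11, cHet12 and cHet14 it had 91, 38, 30 and 98 counts, or 1.75, 0.720, 0.636 and 2.11 CPM. The groups overlapped, because cKO9 lay below both cHet8 and cHet14. The means were 2.63 ± 0.789 CPM in cKO and 1.31 ± 0.740 CPM in cHet (SD, n = 4 each). On the log2 scale cKO lay 1.01 higher (SE 0.49), which neither edgeR (adjusted p = 0.343) nor the exact permutation test (p = 0.0857) passed.

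Tnmd had similar means in both groups. It stood at 37.0, 20.7, 33.8 and 40.8 CPM in cKO7, cKO9, cKO14 and cKO15, against 39.7, 14.7, 50.9 and 41.6 CPM in cHet8, cHet11, cHet12 and cHet14. The groups overlapped widely, and cHet held both the highest and the lowest of the 8 libraries. The means were 33.1 ± 8.76 CPM in cKO and 36.7 ± 15.5 CPM in cHet (SD, n = 4 each). The log2 fold change was -0.15 (SE 0.37, adjusted p = 0.885 by edgeR, exact permutation p = 0.886). The approximate 95% interval from its standard error ran from -0.87 to 0.57 on the log2 scale, and changes within it cannot be told from none. It uses a normal quantile, which makes it too narrow for so few libraries.

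**Figure D1:**
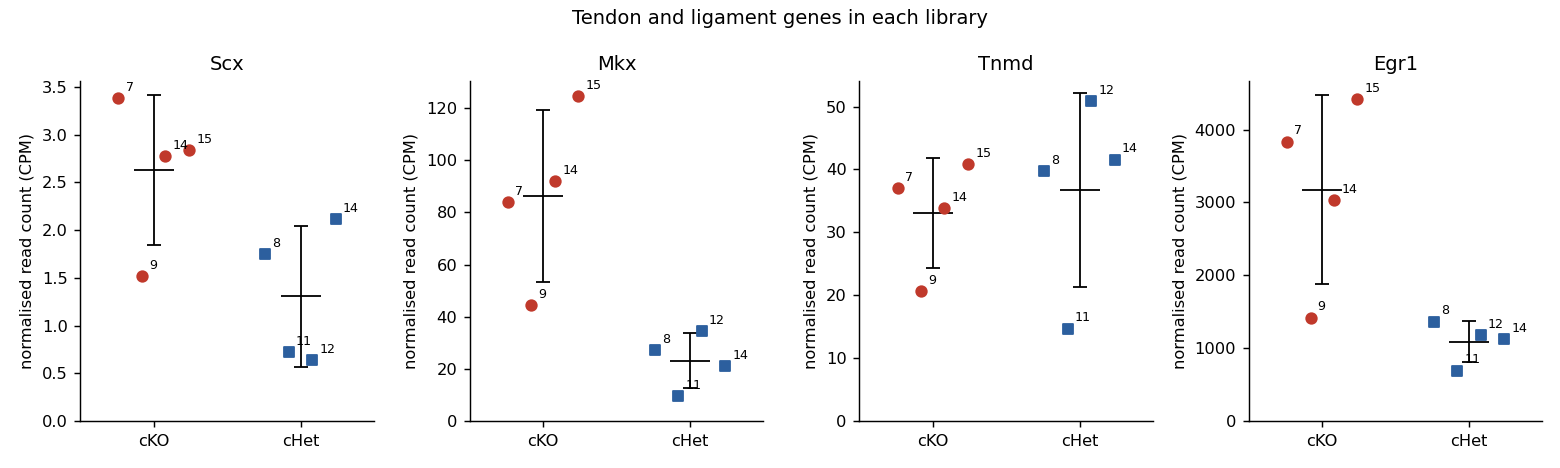
Normalised read count (CPM, linear axes from 0) of Scx, Mkx, Tnmd and Egr1 in each library, with the library number beside its point. Circles are cKO, squares cHet, and black lines are the mean and SD of 4 libraries. Mkx and Egr1 do not overlap between the groups, Scx and Tnmd do, and cKO9 is the lowest cKO library in all 4 panels.

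EdgeR called 0 of the 4 genes. Among all tested genes it called 1.13%, with 1.08% higher in cKO and 0.0558% lower. At an unadjusted p under 0.05, 2 of the 4 (Mkx and Egr1) stood higher, against 10.8% of all genes higher and 6.33% lower. Every cKO library lay above every cHet library for 2 of the 4 and for 6.46% of all tested genes. DESeq2 called 7.95% of genes higher and 4.05% lower, and limma voom with quality weights called 5.96% higher. DESeq2 called Mkx (log2 1.89, adjusted p = 8.29e-05) and Egr1 (log2 1.54, adjusted p = 0.000453), but neither Scx (adjusted p = 0.167) nor Tnmd (adjusted p = 0.836). Limma voom also called Mkx (log2 2.27, adjusted p = 0.0176) and Egr1 (log2 1.63, adjusted p = 0.0206). Without cKO9, edgeR itself called both, Mkx with a log2 value of 2.12 (adjusted p = 0.0346) and Egr1 with 1.79 (adjusted p = 0.0191). In the other leave-one-out fits neither passed.

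Levels of different genes can be set beside each other only per length of transcript. Per kilobase of merged exon in the GENCODE vM21 gene models, Egr1 was highest in both groups, with 708 ± 290 CPM per kilobase in cKO and 243 ± 63.5 in cHet. Scx was lowest, with 1.31 ± 0.393 CPM per kilobase in cKO and 0.650 ± 0.369 in cHet. Between them, Tnmd (24.5 ± 6.47 CPM per kilobase) and Mkx (21.1 ± 8.06) did not differ beyond their spread in cKO. In cHet, Tnmd (27.1 ± 11.4 CPM per kilobase) stood above Mkx (5.64 ± 2.58).

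A ratio of counts inside a library does not depend on how libraries are scaled. The log2 ratio of Mkx to Tnmd counts was 1.33 ± 0.236 in cKO, with a range of 1.10 to 1.61, and -0.68 ± 0.202 in cHet, with a range of -0.97 to -0.54 (SD, n = 4 each). Mkx thus had more counts than Tnmd in every cKO library and fewer in every cHet library, and the group means lay 2.01 apart. Mkx has 4095 bases of merged exon and Tnmd 1353, so this order of counts is not an order of levels per length. The ratio of Scx to Tnmd also did not overlap, at -3.82 to -3.43 in cKO and -6.23 to -4.27 in cHet. Nor did that of Tnmd to Egr1, at -6.76 to -6.10 in cKO and -5.55 to -4.54 in cHet. The difference of means for Scx to Tnmd was 1.17, and 0.70 without cHet12. The groups overlapped for the other pairs. Their differences of means kept their sign but, like that of Scx to Tnmd, shifted when single libraries were left out. For Mkx to Egr1 it was 0.49, and 0.31 without cHet11. For Scx to Mkx it was -0.84, with -1.35 without cHet12 and -0.56 without cHet14. For Scx to Egr1 it was -0.35, with -0.67 without cHet12, -0.21 without cKO15 and -0.09 without cHet14. These differences are given without a test, since the genes were chosen with results of these data known. How often ratios of other gene pairs separate the groups was not counted, so no share over all genes can be given.

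**Figure D2:**
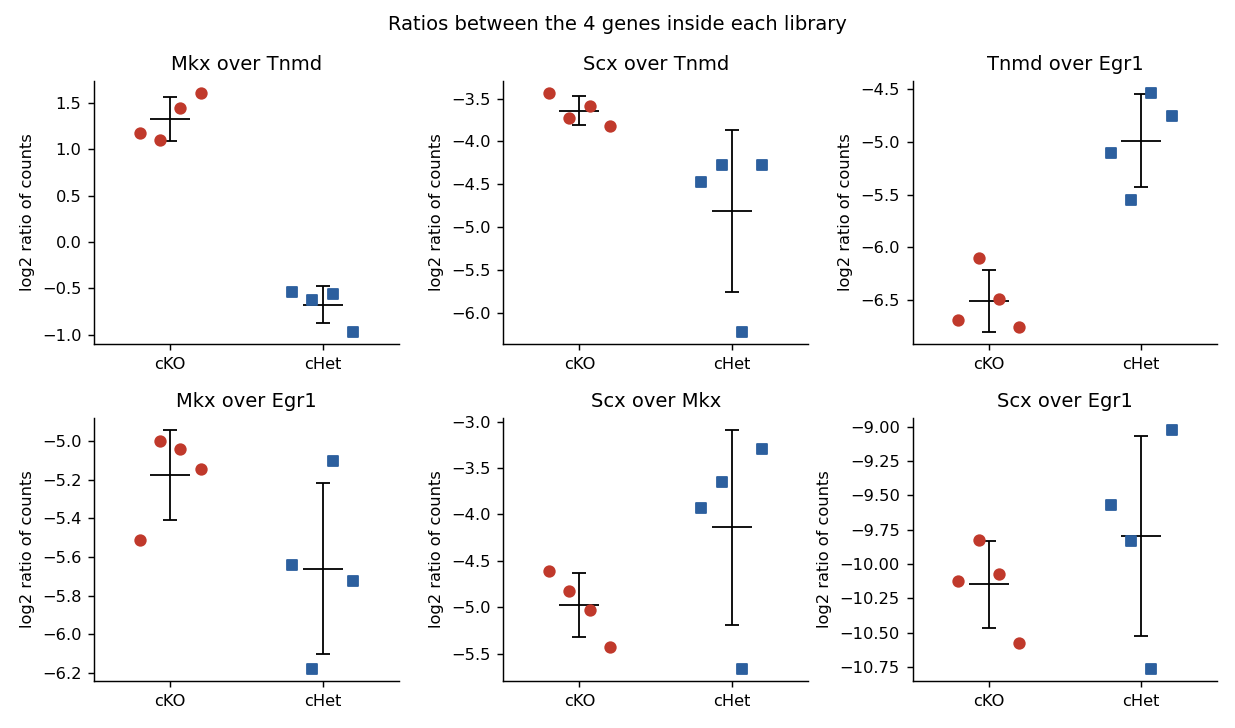
Log2 ratio of counts (2 added to each count) for the 6 pairs of genes, 1 point per library, cKO as circles and cHet as squares, with mean and SD of 4 libraries. The 3 pairs that contain Tnmd separate the groups and the 3 pairs without it overlap. How often other pairs of genes separate the groups was not counted.

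The general mesenchyme markers, like Mkx and Egr1, had positive log2 values. Their groups did not overlap for Prrx1, Prrx2, Pdgfra, Pdgfrb and Fstl1, and overlapped for Vim, Mmp2 and Thy1. Of all tested genes, 6.46% had every cKO library above every cHet library. The mesenchyme score, the mean log2 CPM of its 8 markers, averaged 7.25 in cKO and 5.64 in cHet, a difference of 1.61. The olfactory score averaged 8.68 in cKO and 9.19 in cHet. Relative to the mesenchyme score of the same library, Mkx lay at -1.23 to -0.71 in cKO and -1.65 to -0.89 in cHet, and Egr1 at 3.77 to 4.64 in cKO and 3.99 to 4.77 in cHet. Both overlapped. Scx overlapped as well, at -6.14 to -5.49 in cKO and -6.56 to -4.25 in cHet. Tnmd lay at -2.33 to -2.05 in cKO and -1.11 to 0.02 in cHet, without overlap. Because the score itself was 1.61 higher in cKO, a gene at equal CPM lies about that much lower in cKO on this scale. The difference for Tnmd was -1.66, next to the median of -1.65 over all tested genes. On this scale every cKO library lay below every cHet library for 50.4% of tested genes, and above for 0.604%.

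**Figure D3:**
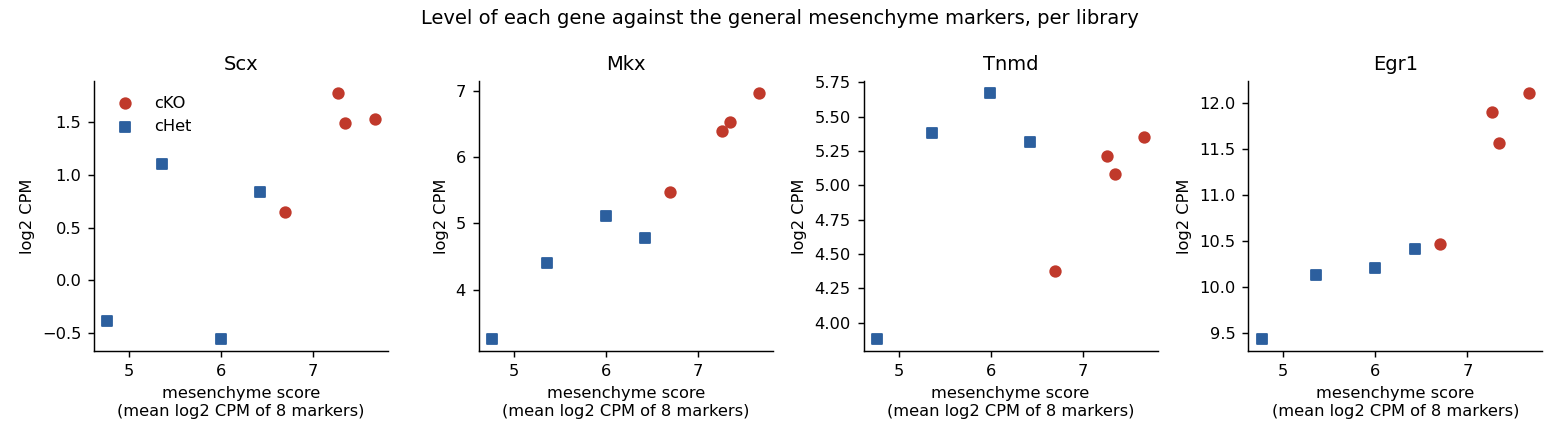
Log2 CPM of each gene (vertical) against the general mesenchyme score of the same library (horizontal, mean log2 CPM of 8 markers), cKO as circles and cHet as squares. The cKO libraries lie to the right of the cHet libraries. For Tnmd, the cKO libraries lie between 4.37 and 5.35 (log2 CPM), and cHet8, cHet12 and cHet14 between 5.31 and 5.67 at lower scores. The library cHet11 has the lowest score (4.76) and the lowest Tnmd value (3.88).

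With the mesenchyme score as a covariate, the log2 value was 0.10 for Mkx (SE 0.42, edgeR adjusted p = 0.999), 0.23 for Egr1 (SE 0.48, adjusted p = 0.992), 0.24 for Scx (SE 1.01, adjusted p = 0.999) and -1.54 for Tnmd (SE 0.51, unadjusted p = 0.0171, adjusted p = 0.712). The score was 6.70 or more in every cKO library and 6.43 or less in every cHet library. The fit can therefore hardly tell this covariate from genotype. With libraries scaled to the mesenchyme markers, the median of all tested genes was -1.74. Tnmd then had a log2 value of -1.75 (adjusted p = 0.0115), next to that median, while Mkx stood at 0.31, Egr1 at -0.16 and Scx at -0.70. With the olfactory score as a covariate, Mkx had 1.29 (adjusted p = 0.850) and Egr1 1.07 (adjusted p = 0.849). What part the mesenchyme and olfactory transcripts had in the differences between groups was not tested.

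**Figure D4:**
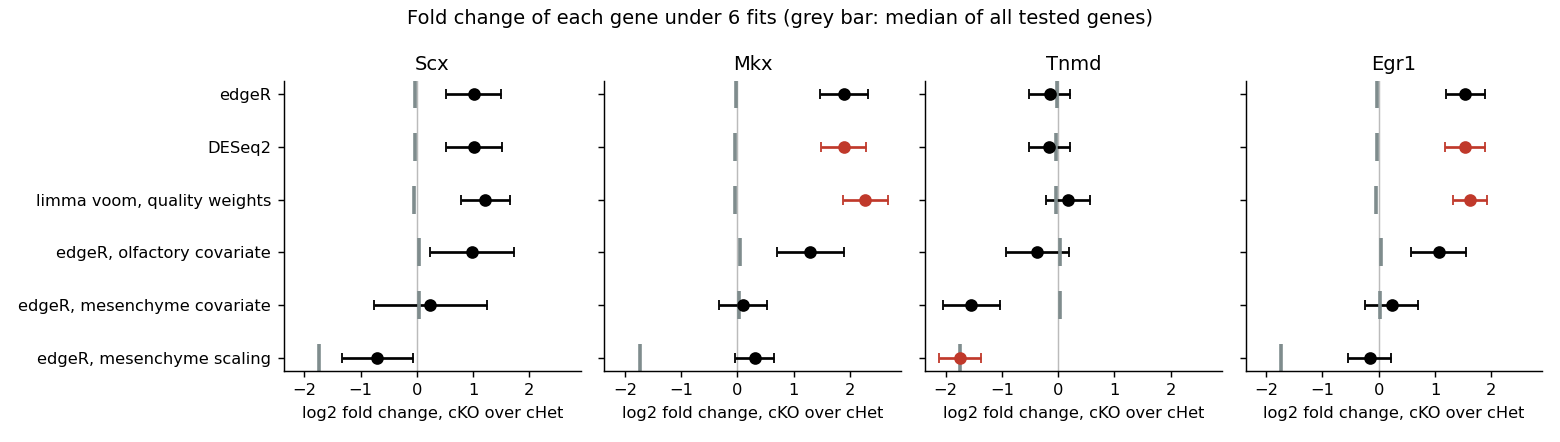
Log2 fold change of each gene, cKO over cHet, with its standard error under 6 fits. Red points have an adjusted p under 0.05 and grey bars give the median of all tested genes in that fit. With the mesenchyme covariate Mkx is at 0.10, Egr1 at 0.23 and Tnmd at -1.54, with the median of all genes at 0.03. With mesenchyme scaling Mkx is at 0.31, Egr1 at -0.16 and Tnmd at -1.75, with that median at -1.74.

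Gene models at 2 of the loci bear on the counts. In GENCODE vM21, Scx on chromosome 15 lies inside Bop1, a ribosome biogenesis gene on the opposite strand, and the exons of these genes share 0 bases. The library kit does not mark strand, so reads of unspliced Bop1 RNA could be counted as Scx. Bop1 stood at 44.0 ± 6.72 CPM in cKO and 40.8 ± 3.69 CPM in cHet (log2 0.11, SE 0.14, edgeR adjusted p = 0.764), with widely overlapping groups. Mkx on chromosome 18 has a non-coding gene, AC148004.1 (ENSMUSG00000117356.2), which vM21 annotates as sharing its promoter on the other strand. That RNA had 55, 12, 60 and 102 counts in cKO7, cKO9, cKO14 and cKO15, against 40, 12, 20 and 1 counts in cHet8, cHet11, cHet12 and cHet14. Its log2 fold change was 1.84 (SE 0.94, edgeR adjusted p = 0.365), the groups overlapped, and cKO15 was highest for it as for Mkx. Another gene model, AC148004.2 (ENSMUSG00000117652.2), overlaps Mkx on its own strand and had 0 to 2 counts per library in cKO and 0 to 3 in cHet. Tnmd on chromosome X and Egr1 on chromosome 18 overlapped no other gene model.

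Relatives of the 4 genes differed among themselves. None of the 11 tested relatives of 13 was called by edgeR (2 at an unadjusted p under 0.05, and DESeq2 called 2 higher), with a median log2 value of 0.34, against -0.03 over all tested genes. Of all tested genes, 10.8% were higher and 6.33% lower at that unadjusted p, and DESeq2 called 7.95% higher and 4.05% lower. Twist2, a helix-loop-helix repressor of mesenchyme, stood at 33.1 ± 11.6 CPM in cKO and 8.09 ± 3.98 CPM in cHet, without overlap (log2 2.03, SE 0.47, edgeR adjusted p = 0.0814). Tcf15 (paraxis), a close helix-loop-helix relative of Scx, stood at 1.43 ± 0.185 CPM in cKO and 2.21 ± 0.537 CPM in cHet (edgeR adjusted p = 0.354). The Iroquois genes, homeobox relatives of Mkx, were scarce: Irx5 was the highest, at 7.30 ± 2.90 CPM in cKO and 6.92 ± 2.35 CPM in cHet, and Irx4 and Irx6 did not pass the filter. Egr2, of the same zinc-finger family as Egr1, stood at 56.4 ± 23.2 CPM in cKO and 50.7 ± 13.9 CPM in cHet (log2 0.15, edgeR adjusted p = 0.877). Egr4, of that family too, was scarce, at 4.12 ± 1.33 CPM in cKO and 5.92 ± 0.778 CPM in cHet. Its log2 value was -0.52 (edgeR adjusted p = 0.441), and the groups overlapped.

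Cnmd, the cartilage counterpart of Tnmd, stood at 609, 216, 468 and 705 CPM in cKO7, cKO9, cKO14 and cKO15, against 37.5, 54.5, 22.9 and 231 CPM in cHet8, cHet11, cHet12 and cHet14. The groups overlapped only through cKO9 and cHet14. The log2 fold change was 2.53 (SE 0.75), not called by edgeR (adjusted p = 0.149) and called by DESeq2 (adjusted p = 0.0305). Cartilage markers were unevenly spread: 5 of them summed to 235 to 1177 CPM in cKO and 97.7 to 2261 CPM in cHet. The highest sum was in cHet14, where Col2a1 alone stood at 1838 CPM. Of the 5, 3 had positive and 2 negative log2 values, and edgeR called 0. Col9a1 stood at 295 ± 124 CPM in cKO and 84.5 ± 91.4 CPM in cHet (log2 1.80, edgeR adjusted p = 0.246). Its groups overlapped only through cKO9 and cHet14, as for Cnmd. Col2a1 had a log2 value of -1.60. The part of cartilage transcripts in the Cnmd values was not tested.

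Across the 5 lists of relatives, tendon regulators, inducing signals, tendon matrix and follicle genes, edgeR called 2 of 68 tested genes higher (of 73 listed) and 0 lower, where it called 1.08% of all genes higher. The median log2 value was 0.75. DESeq2 called 22 of the 68 higher and 2 lower, against 7.95% of all genes higher and 4.05% lower. Every cKO library lay above every cHet library for 16, against 6.46% of all genes. The called genes were Tgfb3 and Tnc. At an unadjusted p under 0.05 edgeR had 31 of the 68, against 3681 of all 21508 tested genes. With the mesenchyme score as a covariate edgeR called 0 of the 68 and 1 of all tested genes. With the olfactory score it called 0 of either. At an unadjusted p under 0.05 there were then 11 of the 68 with the mesenchyme score, against 1305 of all 21508 genes. With the olfactory score there were 13, against 1274. Both calls held without cKO9 or without cHet8, and neither held without any other single library.

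Tgfb3 encodes a ligand of the TGF-beta pathway, which induces Scx in mouse limb cells. It rose to 308 ± 97.4 CPM in cKO, against 69.0 ± 23.5 CPM in cHet (log2 2.16, SE 0.33, edgeR adjusted p = 0.0376). Tgfb2, another ligand, stood at 75.9 ± 18.7 CPM in cKO and 34.1 ± 10.8 CPM in cHet, and the receptor gene Tgfbr2 at 188 ± 74.0 and 69.9 ± 31.2 CPM in cKO and cHet. Neither passed edgeR (adjusted p = 0.0862 for Tgfb2 and 0.130 for Tgfbr2), although the groups did not overlap for either. In the list of inducing signals edgeR called 1 of 15 tested genes higher and 0 lower, with a median of 0.69. Of all tested genes it called 1.08% higher and 0.0558% lower.

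Among 11 tendon regulators tested, edgeR called 0 with the filter and scaling used here (5 at an unadjusted p under 0.05, and DESeq2 called 3 higher and 1 lower). The shares of all tested genes were 10.8% higher and 6.33% lower at that unadjusted p, and 7.95% and 4.05% by DESeq2. Sox9, which marks the shared progenitors of tendon attachments and cartilage, stood at 476 ± 185 CPM in cKO and 95.5 ± 42.8 CPM in cHet, without overlap (log2 2.32, SE 0.44, edgeR adjusted p = 0.0526). Sox9 was called in 5 of 19 alternative fits: by edgeR with no filter (adjusted p = 0.0490), with a minimum of 1 CPM (0.0437) and without cKO9 (log2 2.56, adjusted p = 0.0230), by DESeq2 (3.95e-07) and by voom (0.0140). The homeobox gene Six2 stood at 57.6 ± 14.3 CPM in cKO and 30.9 ± 9.81 CPM in cHet. Nfatc4, a calcineurin-dependent factor, had a log2 value of 1.41 and non-overlapping groups. Etv5, an effector of FGF signalling, ran the other way, at 68.7 ± 8.24 CPM in cKO and 89.7 ± 9.36 CPM in cHet (edgeR adjusted p = 0.177), with every cKO library below every cHet library as for 3.68% of all genes. DESeq2 called Etv5 lower (adjusted p = 0.0151).

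Among 23 matrix genes of tendon and ligament, 17 had positive and 6 negative log2 values (median 0.90), and edgeR called 1 higher (12 at an unadjusted p under 0.05, and DESeq2 called 9 higher and 1 lower). Over all tested genes edgeR called 1.08% higher, and 10.8% were higher and 6.33% lower at that unadjusted p. DESeq2 called 7.95% of them higher and 4.05% lower. Tenascin C (Tnc), an adhesion-modulating matrix protein, rose to 1622 ± 622 CPM in cKO, against 207 ± 117 CPM in cHet (log2 2.97, SE 0.49, edgeR adjusted p = 0.0399). Biglycan (Bgn) and fibromodulin (Fmod), small proteoglycans that organise tendon collagen, had log2 values of 2.13 and 2.07 (edgeR adjusted p = 0.0633 and 0.0897). The related proteoglycans decorin (Dcn) and lumican (Lum) had values of the other sign, Dcn at 167 ± 37.0 CPM in cKO and 343 ± 225 CPM in cHet and Lum at 478 ± 189 CPM in cKO and 757 ± 402 CPM in cHet. Neither passed edgeR (adjusted p = 0.257 and 0.545), and DESeq2 called Dcn lower (log2 -1.05, adjusted p = 0.0492). Col1a1, the main tendon collagen chain, stood at 5551 ± 1558 CPM in cKO and 2383 ± 1587 CPM in cHet (log2 1.22, edgeR adjusted p = 0.233).

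Of 8 tested dental follicle and ligament genes edgeR called 0 (4 at an unadjusted p under 0.05, and DESeq2 called 2 higher), with a median of 0.99. At that unadjusted p 10.8% of all tested genes were higher and 6.33% lower, and DESeq2 called 7.95% higher. Periostin (Postn), a matrix protein of the periodontal ligament, stood at 1497 ± 654 CPM in cKO and 330 ± 156 CPM in cHet, without overlap (edgeR adjusted p = 0.0592). Pthlh, the parathyroid hormone-related protein that follicle cells secrete, stood at 134 ± 55.5 CPM in cKO and 62.1 ± 27.2 CPM in cHet. Its receptor gene Pth1r stood at 64.2 ± 17.5 CPM in cKO and 34.5 ± 16.2 CPM in cHet. Gli1, a Hedgehog target, had a log2 value of 1.30 (edgeR adjusted p = 0.209).

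**Figure D5:**
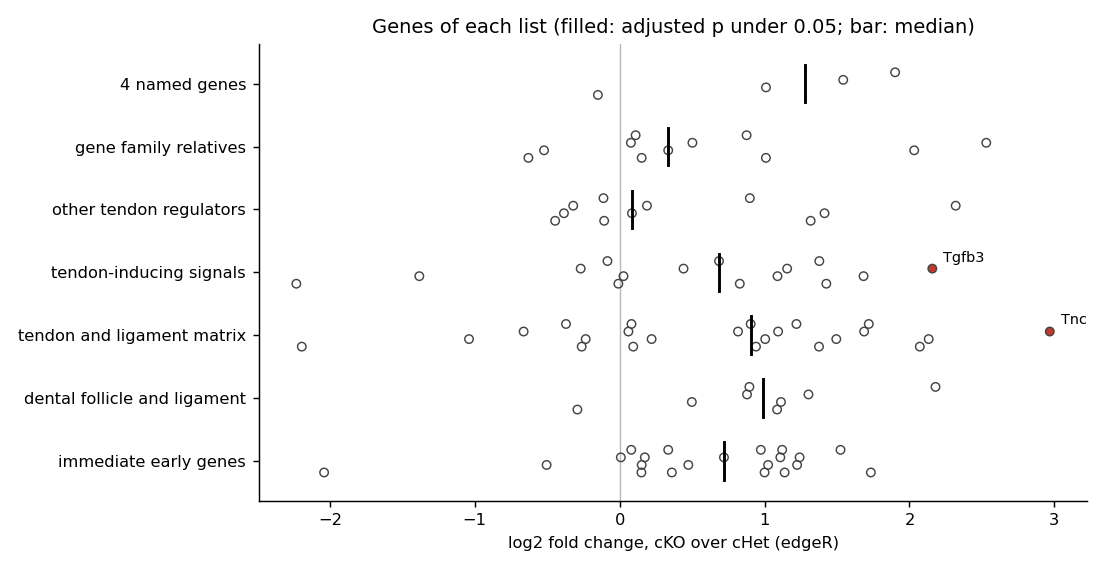
Log2 fold change by edgeR, cKO over cHet, of every tested gene of each list, 1 point per gene, with the list's median as a bar. Filled points, Tgfb3 and Tnc, have an adjusted p under 0.05. The median is 1.28 for the 4 genes and lies between 0.08 for other regulators and 0.99 for the follicle list in the others.

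Egr1 was also set beside other immediate early genes. Of 21 tested, 19 had positive and 2 negative log2 values (median 0.72), and edgeR called 0 (11 at an unadjusted p under 0.05 in either direction, against 10.8% of all genes higher and 6.33% lower). DESeq2 called 9 of them higher, against 7.95% of all genes. Fos, a partner in the AP-1 factor, stood at 4105 ± 1679 CPM in cKO and 1427 ± 458 CPM in cHet without overlap (log2 1.52, SE 0.37, edgeR adjusted p = 0.0913). Jun, of the same factor, stood at 1219 ± 399 CPM in cKO and 609 ± 99.3 CPM in cHet. Fosb had a log2 value of 1.73 and the heat shock gene Hspa1b of 1.22. The groups did not overlap for any of these 3. The phosphatase gene Dusp1 had a log2 value of 0.08 and Atf3, a stress-induced factor, of -0.50. How far handling of the tissue contributed to Egr1 was not tested.

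The genes most like each member over the 8 libraries were ranked by the root-mean-square difference of centred log2 CPM among 12442 genes that averaged 5 CPM or more. For Mkx they were Aebp1, Igfbp4, B3gnt9, C1ra and Kif7, with differences of 0.0696 to 0.167 against an SD of Mkx itself of 1.24. For Egr1 they were Fos, Asap3, Galnt10, Socs1 and Bag3, with 0.109 to 0.130 against an SD of 0.959, and Galnt10 was called higher by edgeR (log2 1.56, adjusted p = 0.0491), a call at the threshold that held in 7 of 19 alternative fits and, of the fits leaving out 1 library, only without cKO9. For Scx they were Capn6, Col27a1, Pth1r, Zfp521 and S100a16, with 0.257 to 0.295 against an SD of 0.875. For Tnmd they were Rtp4, Psrc1, Cdc42ep3, Ticam1 and Adamts5, with 0.208 to 0.271 against an SD of 0.598. The 4 sets of 5 had no gene in common. The nearest neighbours of Scx and Tnmd were less close than those of Mkx and Egr1.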

How the data were processed

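The 8 libraries were read from the authors' deposited table of whole-number read counts per gene, not normalized, with 44444033 to 50051392 counts per library. Per the submitters' processing notes, STAR, Trim Galore and the builds GRCm39 and mm39 were used. The counter, gene annotation and tool versions were not given in the sources used here. Columns are named by group and a number that matches no sample title, so each was assigned to its group only. Symbols were matched to 52073 of 56748 identifiers. Gene overlaps and exon lengths come from GENCODE vM21, whose build differs, so no gene coordinates were taken from it.

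All 8 libraries were fitted in R 4.3.3 with edgeR 4.0.16 (TMM factors, default expression filter by group, quasi-likelihood F test, genotype as the sole term). Benjamini-Hochberg adjustment ran over 21508 genes, calls are adjusted p under 0.05, and the standard error is the fold change over the square root of F. Log2 CPM used a prior count of 2. Exact permutation tests were two-sided over 70 assignments. DESeq2 1.42.0 and limma 3.58.1 were alternatives, with other scalings, filters, covariates and each library left out. Separate animals are not stated, so p-values measure the spread between libraries, which may be technical. In a test on simulated counts of 21508 genes, 200 of them changed, the fit found 56% of the 4-fold and 81% of the 16-fold changes and made 3 false calls among 140. Each simulated gene varied independently of the others, without shared differences between libraries in tissue makeup. These rates therefore need not hold for the real libraries.

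The 4 genes and all lists were chosen with earlier results of these data known. From each list the called genes, or else up to 4 with the smallest p, were named, with the 5 genes most like each member. Irx5, Irx4, Irx6, Egr2, Tgfb2, Tgfbr2, Bgn, Fmod, Dcn, Lum, Col1a1, Dusp1, Atf3, Bop1, AC148004.1, AC148004.2, Xist and Ddx3y are named outside this rule, after their values were seen. So are the papilla, mesenchyme, leukocyte and cartilage markers. Sequences of genes on chromosome 18 are not shown.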

Additional observations from a re-analysis of the deposited data

Results flagged for a closer look

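In 55 genes and ratios, each checked in both groups, 6 groups of 4 libraries had 1 library far from the other 3, by a test that chance passes in about 5% of 110 groups. The log2 ratio of Scx to Tnmd counts was -6.23 in cHet12, where the other cHet libraries lay between -4.47 and -4.27. Six2 stood at 16.2 CPM in cHet11, with the others at 34.8 to 36.8 CPM, and Bgn at 74.1 CPM in the same library, with the others at 192 to 213 CPM. In cKO9, Pth1r stood at 38.1 CPM and the other cKO libraries at 70.4 to 74.2 CPM, and Capn6 at 58.1 CPM with the others at 118 to 134 CPM. For Hspa1b, cHet8 had 8.01 CPM, above 6.03 to 6.28 CPM elsewhere in cHet. The library cHet11 had the lowest mesenchyme score of all 8 (4.76), and cKO9 the lowest of the cKO libraries (6.70).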

How the results depend on the processing

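Mkx kept a positive log2 value in all 19 alternatives and Egr1 and Scx in all but mesenchyme scaling, where Egr1 had -0.16 and Scx -0.70, with the median of all genes at -1.74. Tnmd turned to 0.18 with voom, 0.02 without cKO9 and 0.05 without cHet12, and was called at -1.75 with mesenchyme scaling. DESeq2 called Mkx (1.89) and Egr1 (1.54), and voom called Mkx (2.27) and Egr1 (1.63). Against 232 higher and 12 lower genes by edgeR (95.1% higher), DESeq2 gave 1709 and 871 (66.2%), voom 1281 and 271 (82.5%), mesenchyme scaling 70 and 13870 (0.502%), the mesenchyme covariate 0 and 1 (1305 at an unadjusted p under 0.05), and the olfactory covariate 0 and 0 (1274). Lower genes numbered 5 with no filter and 7 with robust dispersions. The 5 tendon, ligament and follicle lists held 2 called genes by edgeR, 24 by DESeq2, 17 by voom, 26 with mesenchyme scaling (25 of them lower) and 0 with either covariate, and the immediate early list 0 by edgeR, 9 higher by DESeq2, 8 higher by voom, 9 lower with mesenchyme scaling and 0 with either covariate. Fits with 1 library left out were run with edgeR alone.

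Leaving out 1 library gave log2 values of 1.65 to 2.16 for Mkx, 1.34 to 1.79 for Egr1, 0.78 to 1.34 for Scx and -0.40 to 0.05 for Tnmd. Higher genes ranged from 0 to 816 and lower genes from 0 to 144, highest without cKO9. Both were 0 without cKO14, cHet12 or cHet14, where 2934 to 3352 genes had an unadjusted p under 0.05. Called genes of the 5 lists ranged from 0 to 10 and of the immediate early list from 0 to 4. Ratio differences ranged from 1.91 to 2.09 for Mkx to Tnmd, 0.70 to 1.35 for Scx to Tnmd, -1.71 to -1.37 for Tnmd to Egr1, 0.31 to 0.67 for Mkx to Egr1, -1.35 to -0.56 for Scx to Mkx and -0.67 to -0.09 for Scx to Egr1. The cause of these shifts was not tested. Scx, with 30 to 152 counts per library, is the member most limited by depth. No paired analysis was possible because the columns carry none of the replicate numbers in the titles.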
